A study of Homo sapiens with 54 samples.

Results

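The bone morphogenetic protein (BMP) pathway genes ID1, ID2, ID3, ID4, SMAD6, SMAD7, SMAD9, BAMBI, BMP2 and BMP4 were followed through every group of the study. These 10 genes were chosen by name, with earlier results of these data known, and each had a row among the 50037 gene rows of the table. In HCT116, a human colon cancer line, ID1 stood at 0.423 of the control level, ID2 at 0.464 and BMP4 at 0.481 after 3 h of TNF-α. In HepG2, a human liver cancer line, ID1 was 1.73-fold higher after 3 h of IL-6, and BMP4 and BAMBI were 1.57-fold and 1.65-fold higher after 6 h of Torin1. After 3 h of IL-10, BMP4 in HCT116 was also lower than the control and ID1 in HepG2 also higher, each by less. Against the controls, ID1 after Torin1 went opposite ways, up in HCT116 and down in HepG2. Against IL-10 of the same hour, ID1 in HepG2 was lower at 3 h of Torin1 and did not differ detectably at 6 h. The row of ID3 held almost no reads in either line, so its level could not be read.

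Messenger RNA was sequenced from 18 groups of 3 libraries, 54 in all, with 9 groups for each line. The labels call the HepG2 cells liver cancer stem cells, and both lines are long-established cultures. HCT116 and HepG2 cells were exposed for 3 h or 6 h to the cytokines IL-6 (50 ng/mL), IL-10 (50 ng/mL) or TNF-α (100 ng/mL), or to Torin1 (1 µM), an inhibitor of the mTOR kinase. The control group, NC, received an equal volume of complete medium, its labels give no time, and 1 NC group per line serves both hours. A difference between a treated group and NC can therefore not be told apart from the time in culture, and the IL-10 group of the same hour is given as another reference. All groups were kept in a serum-containing medium, NC included. Nothing in the labels says that the 3 libraries of a group came from separate cultures, so the p-values reflect library-to-library spread that may be technical. In bulk RNA a change in the number of cells that express a gene and a change per cell cannot be told apart.

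BMPs are secreted ligands that join type I and type II receptor kinases, which phosphorylate SMAD1, SMAD5 and SMAD9. These enter the nucleus with SMAD4 and switch on target genes, of which the ID genes are the best known. ID proteins lack a DNA-binding region and tie up E proteins such as TCF3 and TCF12, which holds back differentiation programmes. SMAD6, SMAD7 and the decoy receptor BAMBI are induced by the pathway and damp it. In the liver the pathway sets HAMP, the iron hormone hepcidin, and in the gut it restrains the stem cells of the crypt.

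Depth was 38.5 to 55.7 M recovered reads on genes per HCT116 library and 46.3 to 93.7 M per HepG2 library, and mitochondrial protein-coding genes took 4.87% to 6.79% and 7.1% to 8.54% of them. Levels are given as FPKM, fragments scaled to transcript length and to library size, with the 3 libraries of a group in the order of their labels. In HepG2 all 6 hepatocyte markers had a mean of at least 1 FPKM, with summed levels of 14450 to 16980, against 2.605 to 10.1 in HCT116. Of 6 gut markers, CDX2 and EPCAM passed 1 FPKM in HCT116, whereas VIL1, LGALS4, CDH17 and KRT20 stayed at or under 0.0693 in every HCT116 library. HepG2 held EPCAM at 104.2 to 117.0 and VIL1 at 38.19 to 52.68. The summed gut list overlapped between the lines, at 164.6 to 191.2 in HCT116 and 145.7 to 169.4 in HepG2, so it did not separate them. The blood marker PTPRC did not exceed 0.00861 FPKM in HCT116 and was listed at 0 in HepG2, and CD3E did not exceed 0.0582 in either line, while LYZ, another gene of the blood list, stood at 1130 to 1675 in HepG2. Summed fibroblast markers did not exceed 1.815 and summed endothelial markers 0.6356 FPKM in either line. NFKBIA, a gene known to answer TNF-α, stood at 9.539 ± 0.317 FPKM in HCT116 NC and 167.8 ± 8.39 after 3 h of TNF-α, and at 79.03 ± 2.79 and 443.4 ± 66.9 in HepG2 (SD, n = 3, no test). SOCS3, a target of IL-6, stood at 0.0836 ± 0.0363 in HepG2 NC and at 8.608 ± 0.394 after 6 h of IL-6, against 2.977 ± 0.412 and 3.91 ± 0.178 in HCT116. IRS2 stood at 1.214 ± 0.148 in HCT116 NC and 3.587 ± 0.585 after 6 h of Torin1, and at 0.516 ± 0.0144 and 2.08 ± 0.0993 in HepG2. BIRC3 and STAT3 were higher likewise after TNF-α and IL-6, whereas DDIT4 stood at 12.53 ± 1.32 and 8.869 ± 0.965 in HCT116, and at 41.71 ± 1.95 and 4.499 ± 0.293 in HepG2, in NC and after 6 h of Torin1. In HepG2, NFKBIA stood above its NC level after 3 h of every other agent too. Its means were 149.9 ± 22.4 for IL-10, 175.3 ± 28.35 for IL-6 and 118.5 ± 7.135 for Torin1. At 6 h these groups stood below NC, at 61.07, 66.01 and 53.5.

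As sequence context, promoter windows from RefSeq (GRCh38.p14) were searched for known motifs on both strands. Of the 10 genes, 9 had a window of 250 bases before and 50 after a start among 35116 windows. Searched motifs were the palindromic SMAD element GTCTAGAC, the GC-rich element GGCGCC, the short box GTCTG, the STAT motif TTCNNNGAA, the NF-kB motif, the cyclic AMP element TGACGTCA, and the E-boxes CACGTG and CAGCTG. The stretches below belong to the genes that carry the results or hold the rarest match, with capitals marking the named motif.
ID1, chr20:31605039-31605282, plus strand: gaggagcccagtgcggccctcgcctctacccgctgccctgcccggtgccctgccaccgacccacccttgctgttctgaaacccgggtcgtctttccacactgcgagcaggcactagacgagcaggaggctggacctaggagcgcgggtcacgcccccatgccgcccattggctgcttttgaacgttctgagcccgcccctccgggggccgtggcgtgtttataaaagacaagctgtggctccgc
ID2, chr2:8681806-8681866, plus strand: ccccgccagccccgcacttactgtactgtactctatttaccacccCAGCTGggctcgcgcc
SMAD6, chr15:66702116-66702235, plus strand: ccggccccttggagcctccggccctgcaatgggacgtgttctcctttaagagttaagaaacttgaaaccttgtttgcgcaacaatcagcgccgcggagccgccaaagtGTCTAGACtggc
BAMBI, chr10:28677301-28677351, plus strand: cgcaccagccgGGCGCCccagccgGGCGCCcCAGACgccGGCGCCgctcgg
BMP4, chr14:53955220-53955290, minus strand: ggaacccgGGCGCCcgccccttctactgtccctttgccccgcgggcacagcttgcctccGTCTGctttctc
The SMAD6 stretch holds GTCTAGAC from 12 to 5 bases before the start, an element found in 0.202% of all windows. The BAMBI stretch has 3 copies of GGCGCC, which 19.2% of windows hold, and a reverse GTCTG box, a match present in 45.3% of windows. Outside the stretch, the BAMBI window also holds a forward GTCTG from 140 to 136 bases before the start. In the BMP4 stretch, which precedes 1 of its 3 listed starts, GGCGCC and GTCTG are marked once each. ID2 holds the E-box CAGCTG (17.9% of windows), and the ID1 window holds none of the 8 motifs, which says only that these letters are not in this window. No window of the 9 genes held the NF-kB motif (5.91% of windows) or TGACGTCA (1.85%), and ID3 alone held the STAT motif (7.66%). The match of a short motif is a description of the sequence and not a site of binding.

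ID1 lies at chr20:31605289-31606510 and encodes the ID protein most used as a readout of BMP signalling. In HCT116, NC libraries held 71.3, 64.27 and 63.13 FPKM. TNF-α libraries held 28.13, 28.14 and 27.88 at 3 h and 32.07, 32.36 and 33.07 at 6 h. Torin1 libraries held 93.51, 99.65 and 94.94 at 3 h and 92.81, 95.88 and 93.37 at 6 h. Every TNF-α library lay below, and every Torin1 library above, all NC libraries, and the groups did not overlap. The differences from NC on the log2(FPKM + 1) scale were -1.21 ± 0.043 (SE) and -1.0 ± 0.043 for TNF-α, with adjusted p of 2.22e-15 and 7.95e-14 from limma. Torin1 gave 0.53 and 0.50 on the same scale (adjusted p 1.68e-09 and 3.59e-09). IL-6 and IL-10 libraries overlapped those of NC at both hours, with differences of 0.04 to 0.08 that did not pass. Against IL-10 of the same hour, TNF-α stood at -1.29 and -1.07 and Torin1 at 0.45 and 0.44, all called. ID1 also rose from 3 h to 6 h of TNF-α by 0.21 (adjusted p 0.000788), while staying far under NC.

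In HepG2, ID1 rose after IL-6 at both hours. NC held 132.7, 147.6 and 141.5 FPKM, IL-6 at 3 h 238.9, 270.6 and 219.3, and IL-6 at 6 h 203.8, 200.8 and 193.9. All 6 IL-6 libraries lay above the 3 of NC. The rises were 0.78 ± 0.066 and 0.50 ± 0.066 (adjusted p 1.09e-08 and 1.09e-05). Against IL-10 of the same hour the rises were 0.52 and 0.73, both called. IL-10 itself gave 184.6, 167 and 154.4 at 3 h, a rise of 0.26 (adjusted p 0.00908), and a mean of 119.6 ± 2.74 at 6 h, a fall of 0.23 on the log2 scale (adjusted p 0.0272). The 3 h call was lost without the first IL-10 library (0.19), without the first NC library (0.22) and in a fit of the compared groups alone, and the 6 h call was lost in 7 of 12 alternatives. TNF-α held 131, 148.9 and 130 at 3 h, overlapping NC, and 97.88, 93.43 and 98.28 at 6 h, all below NC (-0.54, adjusted p 3.05e-06). Torin1 lowered ID1 by 0.21 and 0.22 on the log2 scale (-0.21 at 3 h and -0.22 at 6 h), to means of 121.0 ± 5.09 and 120.1 ± 0.939. Against IL-10, however, Torin1 differed at 3 h (-0.47) and not detectably at 6 h (0.01, adjusted p 0.941). The 3 h difference from NC was lost without the second NC library (-0.18).

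The difference between the lines in ID1 was itself tested, as the effect in HCT116 minus that in HepG2. It was -1.17 for TNF-α at 3 h (adjusted p 9.64e-15), -0.47 at 6 h, 0.75 and 0.72 for Torin1 at 3 h and 6 h, and -0.72 and -0.47 for IL-6. Each of these passed (adjusted p 7.99e-05 or lower), and for Torin1 the direction against NC was opposite, up in HCT116 and down in HepG2.

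**Figure D1:**
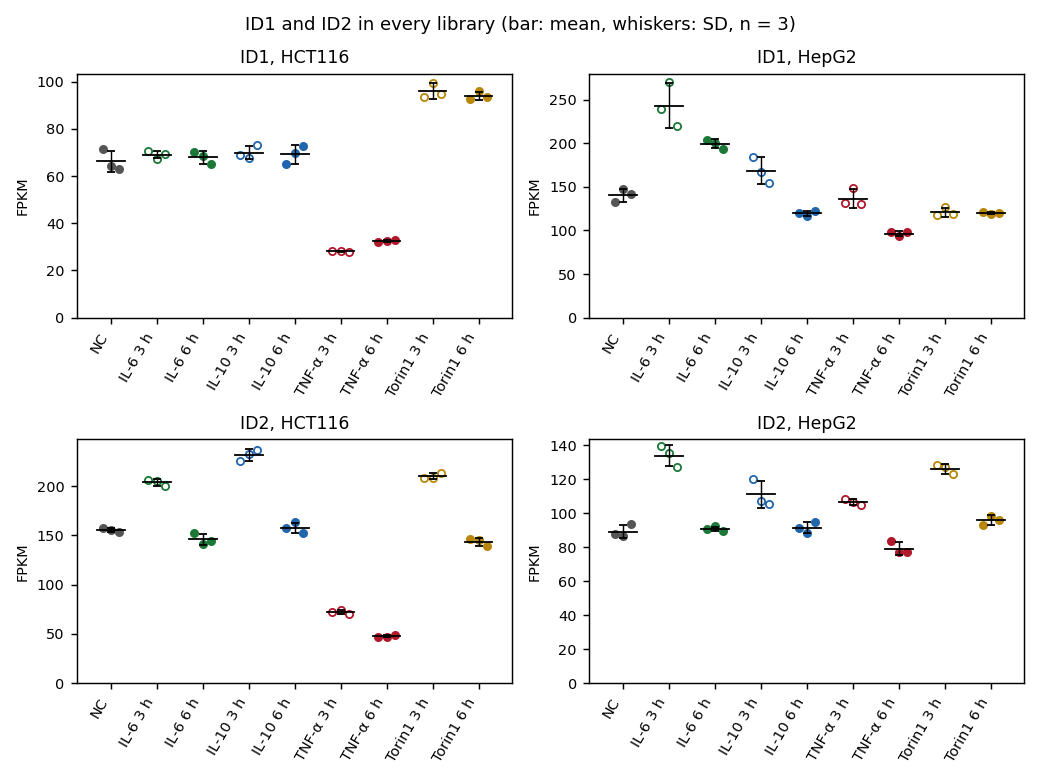
ID1 (top) and ID2 (bottom) in HCT116 (left) and HepG2 (right), FPKM on the vertical axis from 0 and the 9 groups along the horizontal axis; each circle is a library (open at 3 h, filled at 6 h and for NC), the bar is the mean and whiskers the SD of 3. In HCT116 the TNF-α libraries of both genes lie below all others, between 27.88 and 33.07 for ID1, and in HepG2 the highest ID1 libraries are those of IL-6 at 3 h.

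ID2 lies at chr2:8682056-8684461, and its product is another partner of the E proteins. HCT116 NC libraries held 157.4, 155.8 and 153.4 FPKM. TNF-α left 71.79, 74.4 and 70.3 at 3 h and 47.17, 46.66 and 48.49 at 6 h, so that no TNF-α library reached the lowest library of any other HCT116 group. The falls from NC were -1.10 ± 0.03 and -1.69 ± 0.03 (adjusted p 2.44e-17 and 1.67e-20), and against IL-10 of the same hour -1.67 and -1.71. At 3 h the other agents raised ID2, to means of 204.0 ± 3.33 for IL-6 (0.39), 231.8 ± 6.15 for IL-10 (0.57) and 210.2 ± 3.04 for Torin1 (0.43), with no overlap with NC. IL-6 and Torin1 at 3 h were lower than IL-10 at 3 h, at -0.18 and -0.14, the first of which was lost without the third IL-6 library (-0.17) and in a fit of the compared groups alone (adjusted p 0.422). At 6 h, IL-10 was back at 157.6 ± 5.42 (0.02, adjusted p 0.724), IL-6 stood at -0.09 (adjusted p 0.0435, lost in 7 alternatives) and Torin1 at -0.12 (adjusted p 0.00265).

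In HepG2, ID2 rose at 3 h with every agent, TNF-α included. NC held 87.47, 86.41 and 93.43 FPKM, and the means at 3 h were 133.9 ± 6.26 for IL-6, 111.0 ± 8.08 for IL-10, 106.4 ± 1.76 for TNF-α and 126.1 ± 2.89 for Torin1. All 4 rises passed (0.58, 0.31, 0.25 and 0.50), and the libraries did not overlap with NC. At 6 h, TNF-α stood at 79.11 ± 3.76, a fall of 0.17 on the log2 scale (adjusted p 0.00784, lost without the third NC library at -0.14), and IL-6 and IL-10 did not pass (adjusted p 0.776 and 0.656). Torin1 at 6 h just missed, at 0.11 (adjusted p 0.0502), and passed in 6 of 12 alternatives. IL-6 exceeded IL-10 at 3 h by 0.27 and Torin1 exceeded it by 0.18, both called (the first not in a fit of the compared groups alone, adjusted p 0.0728), whereas TNF-α did not differ detectably (-0.06, adjusted p 0.437). ID2 was lower at 6 h than at 3 h in all 4 agents of both lines, by -0.48 to -0.59 in HCT116 and -0.27 to -0.56 in HepG2. The lines differed in the TNF-α effect by -1.35 at 3 h and -1.52 at 6 h (adjusted p 1.24e-21 and 2.38e-23). The ID2 effect at 3 h also differed between them for IL-6 (-0.19, adjusted p 0.00654) and for IL-10 (0.26, adjusted p 0.000602). The antisense gene ID2-AS1 overlaps ID2 in the GENCODE annotation, and the sources used here do not state the strand setting of the counting, so reads of the pair cannot be told apart. ID2-AS1 itself was listed at 0.1384 to 0.9162 FPKM, against 46.66 to 237.2 for ID2.

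ID3 lies at chr1:23557926-23559501 and ID4 at chr6:19837370-19842197. The row named ID3 was listed at 0 in 19 of 27 HCT116 libraries and 22 of 27 HepG2 libraries, and never exceeded 0.1796 FPKM or 8 reads. The table lists numbered copy rows beside many symbols, and the copy row of ID3 held 0.8353 to 28.58 FPKM. Within the HCT116 IL-10 group at 3 h it gave 25.88, 4.729 and 2.474. The highest and lowest libraries of a group differed by up to 12.86-fold in HCT116 and 8.91-fold in HepG2, against at most 1.13-fold and 1.23-fold for ID1. EIF4A1 and FTH1, genes every cell uses, were also listed at 0 in all 54 libraries, so a listed 0 need not mean that a gene was silent. The copy row passed the filter, but its standard errors in limma were 0.713 in HCT116 and 0.733 in HepG2 on the log2 scale, against 0.043 and 0.066 for ID1, and no result for ID3 is drawn from it. ID4, the fourth family member, stayed at or under 0.4515 FPKM in HCT116 and 0.1909 in HepG2 and did not pass the filter of 1 FPKM in 3 libraries. Its Torin1 libraries in HCT116 (0.2998, 0.4515 and 0.3332 at 3 h, 55 to 91 reads) lay above those of NC (0.09866, 0.1191 and 0.08078, 15 to 23 reads). With limma-voom on recovered reads and no filter, a setting chosen after seeing the data, the rise was 1.84 at 3 h and 1.65 at 6 h on the log2 CPM scale (adjusted p 0.000888 and 0.00235).

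**Figure D2:**
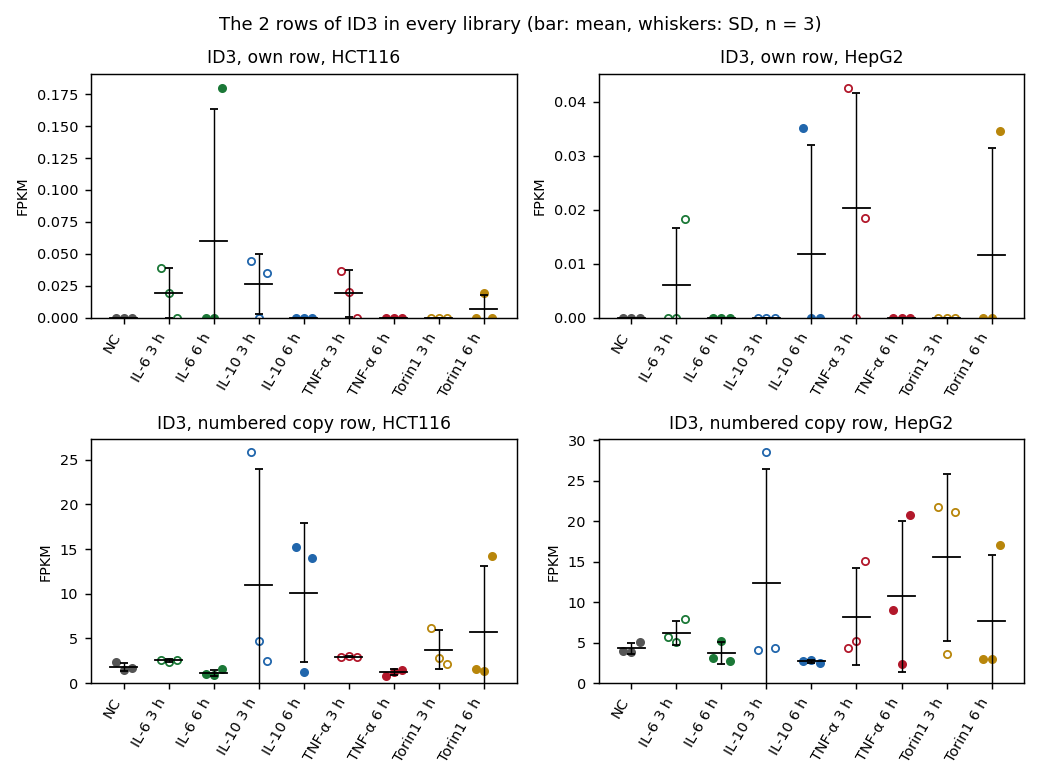
FPKM of the row named ID3 (top) and of its numbered copy row (bottom) in each of the 54 libraries, by group and line, with the mean and SD of 3. The own row stays at or under 0.1796, while the copy row jumps between libraries of the same group, for example 25.88, 4.729 and 2.474 for IL-10 at 3 h in HCT116.

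BMP4, at chr14:53949736-53956891, was the abundant ligand of the set. HCT116 NC libraries held 62.6, 64.99 and 62.41 FPKM, TNF-α at 3 h 29.3, 30.33 and 31.74, and TNF-α at 6 h 36.96, 35.27 and 40.22. No TNF-α library reached any NC library, and the differences were -1.03 ± 0.044 and -0.74 ± 0.044 (adjusted p 4.18e-14 and 1.79e-11). Torin1 gave higher levels, 70.05, 76.26 and 71.98 at 3 h and 79.97, 80.6 and 74.22 at 6 h, rises of 0.20 and 0.30 over NC. IL-6 and IL-10 at 3 h both stood lower than NC, at 50.81 ± 0.707 and 51.31 ± 1.41 (-0.31 and -0.30), and neither passed at 6 h (adjusted p 0.802 and 0.325). Against IL-10 of the same hour TNF-α differed by -0.73 and -0.68 and Torin1 by 0.50 and 0.36, while IL-6 differed by -0.01 and 0.04 and did not pass.

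HepG2 held less BMP4, with 28.3, 28.72 and 28.34 FPKM in NC. TNF-α gave 18.83, 20.14 and 17.72 at 3 h and 18.98, 18.56 and 19.29 at 6 h. Torin1 gave 35.12, 38.01 and 40.5 at 3 h and 43.55, 46.64 and 43.44 at 6 h, the highest of the line. TNF-α libraries all lay under NC and Torin1 libraries all over it, with differences of -0.57 and -0.56 for TNF-α and 0.40 and 0.63 for Torin1 (adjusted p 1.59e-07, 3.08e-07, 1.04e-05 and 8.99e-09). IL-6 stood lower than NC too, at -0.30 and -0.34. Against IL-10 it stood at -0.17 at 3 h (adjusted p 0.0455, overlapping and lost in 7 alternatives) and -0.27 at 6 h (adjusted p 0.00193). Torin1 raised BMP4 further between 3 h and 6 h, by 0.23 (adjusted p 0.00386). The fall after 3 h of TNF-α was larger in HCT116, by -0.47 (adjusted p 5.91e-06), and the Torin1 rise was smaller at 6 h (-0.33, adjusted p 0.000361) and at 3 h (-0.20, adjusted p 0.0283, lost in 5 alternatives).

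BMP2, at chr20:6767686-6780246 and with no RefSeq promoter window, went the other way in HCT116. NC held 0.2853, 0.2263 and 0.2765 FPKM (40 to 47 reads), TNF-α at 3 h 0.5021, 0.425 and 0.5526, and TNF-α at 6 h 1.213, 1.001 and 1.112 (156 to 202 reads). The 6 TNF-α libraries lay above every other HCT116 library of the gene. The ratio of the means was 1.88 at 3 h and 4.22 at 6 h, and the log2(FPKM + 1) differences were 0.24 (adjusted p 0.00303) and 0.74 (adjusted p 3.78e-09), a scale that understates low genes. The gene passed the filter only through the TNF-α libraries at 6 h, so it had to differ there. Voom on the recovered reads without a filter gave 0.90 and 2.07 on the log2 CPM scale. In HepG2, BMP2 stayed at or under 0.1578 FPKM and 27 reads, with 4 libraries listed at 0, and did not pass the filter. Its HepG2 means ran from 0.003139 ± 0.00544 after 6 h of IL-10 to 0.133 ± 0.0257 after 3 h of Torin1, a range of few reads.

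**Figure D3:**
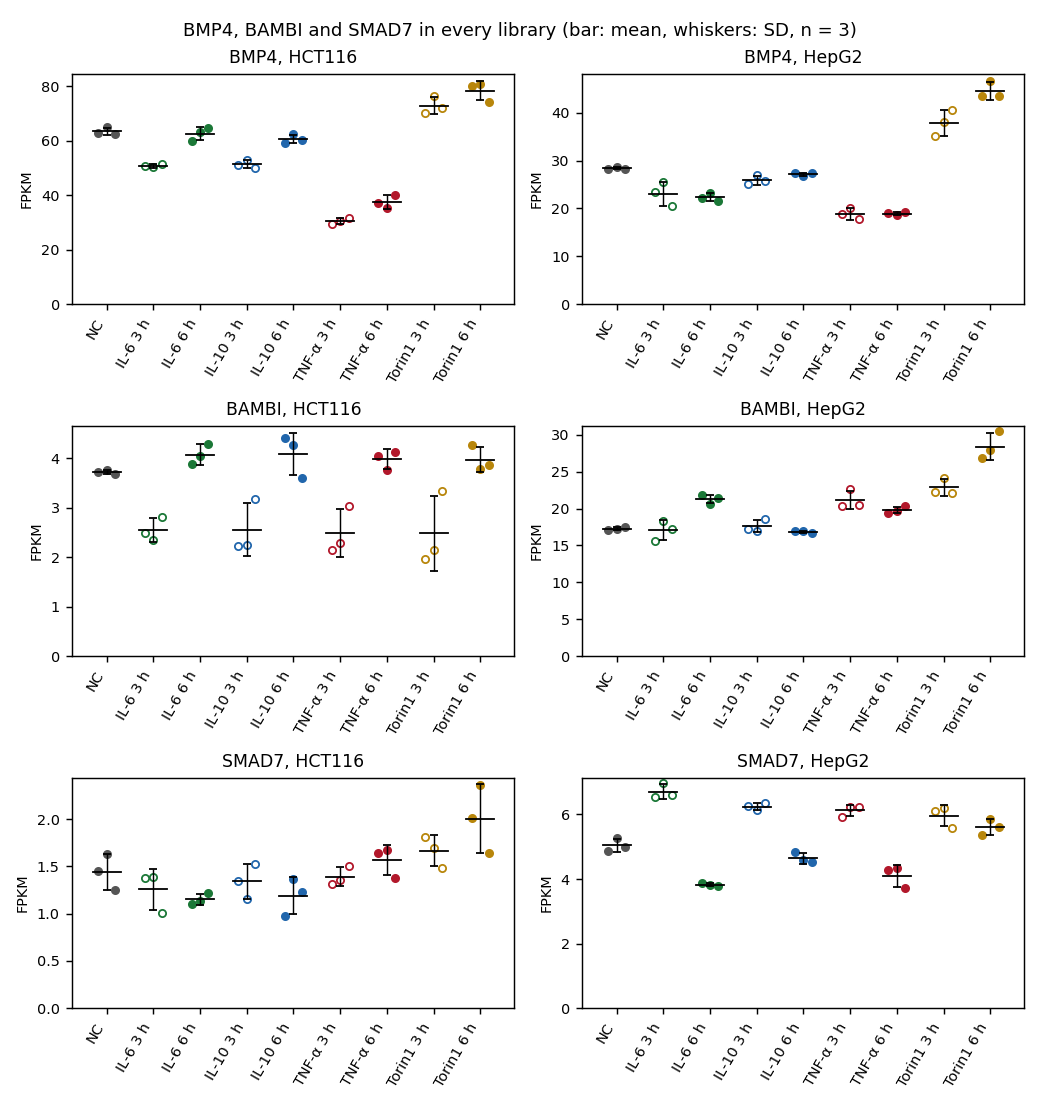
BMP4, BAMBI and SMAD7 (rows) in HCT116 (left) and HepG2 (right), FPKM per library from 0 with the mean and SD of 3, groups along the horizontal axis, open circles at 3 h and filled circles at 6 h and for NC. BMP4 lies lowest after TNF-α and highest after Torin1 in both lines, and BAMBI in HCT116 lies lower at 3 h than at 6 h for every agent.

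BAMBI, at chr10:28677521-28682932, encodes a receptor without a kinase domain that holds BMP receptors inactive. In HCT116 NC it held 3.722, 3.772 and 3.676 FPKM, and 3 h means were 2.548 ± 0.238 for IL-6, 2.557 ± 0.543 for IL-10, 2.486 ± 0.479 for TNF-α and 2.480 ± 0.752 for Torin1. The third library of the IL-10, TNF-α and Torin1 groups (3.184, 3.034 and 3.342) stood above its partners, and all 12 lay under NC. The differences were -0.41 to -0.46 on the log2 scale (adjusted p 0.00221 to 0.0102). At 6 h the means were 3.973 to 4.089, with differences of 0.07 to 0.10 that did not pass (adjusted p 0.576 to 0.666). In the 6 comparisons with IL-10 of the same hour, limma called none, 0 had an unadjusted p under 0.05, and voom called none, so the agents did not differ detectably from IL-10. Between 3 h and 6 h BAMBI rose by 0.52 to 0.54 in each agent.

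HepG2 held more BAMBI, 17.08, 17.22 and 17.47 FPKM in NC. Torin1 gave 22.31, 24.2 and 22.16 at 3 h and 26.83, 27.96 and 30.46 at 6 h, and TNF-α 20.36, 22.62 and 20.51 at 3 h. All lay above NC, and the rises were 0.39 and 0.69 for Torin1 (adjusted p 2.94e-06 and 3.22e-10) and 0.28 and 0.19 for TNF-α at 3 h and 6 h. IL-6 passed at 6 h (21.29 ± 0.575, 0.29) and not at 3 h (17.05 ± 1.37, -0.02), and IL-10 passed at neither hour. The lines differed in the effect against NC of each agent at 3 h. The differences were -0.40 for IL-6, -0.45 for IL-10, -0.73 for TNF-α and -0.85 for Torin1, and -0.61 for Torin1 at 6 h. All of these were called, that for IL-6 not without the second HepG2 IL-6 library (-0.34) or without a filter. In HCT116 every agent shared a fall from NC at 3 h (-0.41 to -0.46), while IL-6 and IL-10 in HepG2 stood at -0.02 and 0.03. The line differences for IL-6 and IL-10 can therefore not be told apart from the time in culture.

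SMAD7, at chr18:48919853-48950965, encodes an inhibitory SMAD that blocks the activated receptor. In HepG2 NC it held 4.875, 5.256 and 4.992 FPKM, and at 3 h IL-6 gave 6.545, 6.971 and 6.607, IL-10 6.248, 6.136 and 6.351, TNF-α 5.923, 6.244 and 6.217, and Torin1 6.113, 6.195 and 5.593. All 12 libraries at 3 h lay above the 3 of NC, with rises of 0.35, 0.26, 0.24 and 0.21 (adjusted p 0.000554 or lower). At 6 h IL-6 had fallen to 3.883, 3.819 and 3.784 (-0.32) and TNF-α to 4.275, 4.329 and 3.714 (-0.24), all under NC, whereas Torin1 stayed above it (0.13, adjusted p 0.0137, lost without the first NC library at 0.11 or the second Torin1 library at 0.10). Against IL-10 at 3 h, IL-6 (0.09), TNF-α (-0.02) and Torin1 (-0.06) did not pass. At 6 h IL-6 (-0.22), TNF-α (-0.15) and Torin1 (0.23) did, TNF-α not without the first IL-10 (-0.12) or the third TNF-α library (-0.09), nor in a fit of the compared groups alone. SMAD7 was lower at 6 h than at 3 h for IL-6 (-0.67), IL-10 (-0.36) and TNF-α (-0.48), and not detectably so for Torin1 (-0.08, adjusted p 0.181).

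In HCT116, SMAD7 was low, 1.447, 1.632 and 1.252 FPKM in NC. It passed against NC after 6 h of Torin1 (2.009, 2.367 and 1.639, 0.29, adjusted p 0.00849), a call lost without the third NC library (0.24) or the second Torin1 library (0.21). Against IL-10 at 6 h (1.191 ± 0.196), SMAD7 was called higher after TNF-α (1.567 ± 0.160) and after Torin1 (2.005 ± 0.364). The effect of IL-6 at 3 h was lower in HCT116 than in HepG2 by -0.47 (adjusted p 0.00044) and that of IL-10 by -0.32 (adjusted p 0.0163, lost with a pseudocount of 0.1 and without the second HCT116 IL-10 or NC library, each at -0.27). TNF-α at 6 h differed by 0.32 (adjusted p 0.0246, lost in 8 alternatives).

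SMAD6, at chr15:66702236-66782849, competes with the activated SMADs, and SMAD9, at chr13:36844831-36920854, is itself one of them. In HepG2 SMAD6 held 1.16, 1.117 and 1.033 FPKM in NC and fell after 3 h of TNF-α (-0.23) and after Torin1 at 3 h (-0.22) and 6 h (-0.21), with adjusted p of 0.00934, 0.00792 and 0.00721. The TNF-α call was lost without the first TNF-α library (-0.19). SMAD9 held 0.91, 0.8988 and 0.877 in HepG2 NC and 1.438, 1.385 and 1.52 after 6 h of Torin1, above every other library of the line, a rise of 0.37 (adjusted p 2e-07). It reached the filter through the Torin1 libraries, so it had to differ there too. SMAD9 was lower after 3 h of TNF-α (-0.21) and of IL-6 (-0.14, lost without the first IL-6 library at -0.12 and in a fit of the compared groups alone). Against IL-10 at 3 h, limma called SMAD9 for neither agent. Voom without a filter called it lower for TNF-α (-0.29, adjusted p 0.0247) and not for IL-6 (-0.12, adjusted p 0.39). In HCT116 both genes stayed under the filter, at most 0.6106 FPKM for SMAD6 and 0.2444 for SMAD9. SMAD6 held 0.207, 0.2863 and 0.2641 in HCT116 NC, 0.09136, 0.1022 and 0.1169 after 6 h of TNF-α, and 0.481, 0.6106 and 0.5639 after 6 h of Torin1. These 3 groups did not overlap, and voom without a filter gave -1.27 (adjusted p 0.000859) for TNF-α and 1.13 (adjusted p 1.19e-05) for Torin1. It gave -0.97 for SMAD9 after 6 h of TNF-α (adjusted p 0.000881). For SMAD6 after Torin1 the lines went opposite ways in the same setting, with a difference of 1.34 at 3 h and 1.54 at 6 h (adjusted p 2.25e-05 and 5.45e-07).

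**Figure D4:**
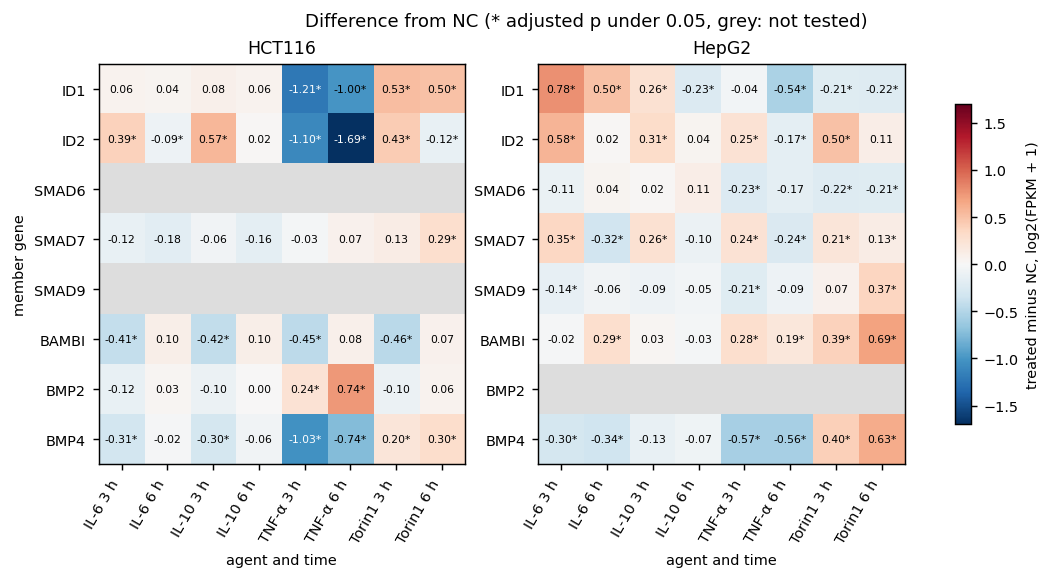
Difference of each treated group from NC on the log2(FPKM + 1) scale for 8 of the 10 genes (rows) and the 8 treated groups (columns) in HCT116 (left) and HepG2 (right); an asterisk marks an adjusted p under 0.05 from limma and grey a gene under the filter. In HCT116 ID1, ID2 and BMP4 are blue after TNF-α, from -0.74 to -1.69, and in HepG2 BMP4 and BAMBI are red after Torin1, up to 0.69.

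Counted over the members above the filter, 6 for HCT116 and 7 for HepG2, the calls against NC ran as follows. In HCT116, TNF-α called 5 of 6 at 3 h and 4 of 6 at 6 h, where 41.6% and 33.9% of the 11395 genes tested were called. At 3 h 1 member was higher and 4 were lower, against 19.2% and 22.4% of all genes. These counts hold BMP2, which passed the filter only through TNF-α libraries. Without it, TNF-α called 4 of 5 at 3 h and 3 of 5 at 6 h, all lower, with medians of -1.03 and -0.74 against 0 and -0.01 over all genes. Torin1 called 4 of 6 at each hour, with 53.7% and 57.2% of all genes called. At each hour 3 were higher (25.1% and 25.8% of genes) and 1 was lower (28.6% and 31.5%), with medians of 0.16 and 0.18 against 0 and -0.02. IL-6 called 3 at 3 h and 1 at 6 h (31.6% and 16.6% of genes), IL-10 called 3 at 3 h (38.8%), and at 6 h limma called 0 for IL-10, with 0 at an unadjusted p under 0.05 and 0 by voom (20.5% of genes). In HepG2, Torin1 called 6 of 7 at each hour, where 45.5% and 59.9% of the 11280 genes were called. At each hour 4 were higher (19.4% and 26.1% of genes) and 2 lower (26.1% and 33.8%). SMAD9, which passed the filter only through Torin1 libraries, is among them, and without it Torin1 called 6 of 6 at 3 h and 5 of 6 at 6 h, with medians of 0.30 and 0.12 against -0.04 and -0.03. TNF-α called 6 at 3 h and 5 at 6 h (29.7% and 28.7%), IL-6 5 and 4 (33.9% and 19.4%), and IL-10 3 and 1 (19.1% and 11.7%). Against IL-10 of the same hour, HCT116 IL-6 called 1 member at 3 h, where 0.237% of genes were called, and none at 6 h (1 at an unadjusted p under 0.05, 0 by voom, 0.114% of genes). In HepG2 IL-6 called 3 of 7 members at 3 h and 4 at 6 h against IL-10 (22.8% and 23.6% of genes), TNF-α 4 and 6 (16.1% and 34.8%) and Torin1 6 and 5 (45.5% and 59%), and in HCT116 TNF-α called 4 and 5 of 6 (36.5% and 42.3%) and Torin1 3 and 4 (44.3% and 57.3%). Without BMP2 and SMAD9 the counts against IL-10 were 3 and 4 of 5 for TNF-α in HCT116 and 5 and 4 of 6 for Torin1 in HepG2. These comparisons share the NC or IL-10 libraries, so their counts are not independent. The members were chosen with earlier results of these data known, which the shares over all genes do not take into account.

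Between 3 h and 6 h, TNF-α in HCT116 moved 5 of 6 members, where 37.3% of genes were called. ID1, BAMBI, BMP2 and BMP4 were higher at 6 h, as were 20.2% of genes, and ID2 was lower, as were 17% of genes, which leaves 4 of 5 without BMP2. IL-6, IL-10 and Torin1 moved 3, 3 and 2 (18.4%, 20% and 30.4% of genes). In HepG2 the counts were 4, 3, 4 and 4 of 7 for IL-6, IL-10, TNF-α and Torin1 (23.5%, 16%, 25.4% and 36.4%), and 3 of 6 for TNF-α and for Torin1 without SMAD9. The 5 members tested in both lines, ID1, ID2, SMAD7, BAMBI and BMP4, differed between the lines in 24 of 40 effects. At 3 h 4 of 5 differed for IL-6 and for TNF-α, where 33.3% and 22.9% of genes did, and 3 for IL-10 and Torin1 (24.4% and 39.9%). At 6 h the counts were 2 for IL-6 (15.8%), 1 for IL-10 (16.8%), 3 for TNF-α (16.8%) and 4 for Torin1 (50.1%). The median difference over the 5 was -0.73 for TNF-α at 3 h, against 0.01 over all genes.

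The medium controls of the lines were compared in a fit of all 54 libraries. ID2, BMP4 and BMP2 were higher in HCT116, and ID1, SMAD6, SMAD7, SMAD9 and BAMBI were higher in HepG2. All 8 tested members were called by limma, as were 85.6% of the 12992 genes (42.2% higher in HCT116, 43.3% lower), and nothing is read from that count. In the order of mean NC level, HCT116 held ID2 (155.6 ± 2.01 FPKM), then ID1 (66.23 ± 4.42) and BMP4 (63.33 ± 1.43), which overlapped each other, then BAMBI and SMAD7, then BMP2 and SMAD6, which overlapped each other, and then SMAD9 and ID4. HepG2 held ID1 (140.6 ± 7.5) first, then ID2 (89.10 ± 3.79), BMP4, BAMBI, SMAD7, SMAD6 and SMAD9, none overlapping the next, and last ID4 and BMP2, which overlapped each other.

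The 54 other genes listed for the pathway were also chosen with earlier results of these data known. Of them, 24 reached the filter level in HCT116 and 25 did so in HepG2. Of 11 other ligands, 2 reached it in HCT116 (BMP7 and BMP8B) and 1 in HepG2 (GDF7), and of 10 secreted antagonists 1 and 2 did. Of 12 receptors and coreceptors 7 were tested in each line, and of 11 SMAD transducers and regulators 10. After 3 h of TNF-α in HCT116, 5 of the 24 rose and 12 fell, where 19.2% of all genes were higher and 22.4% lower. After 3 h of Torin1 5 rose and 14 fell, against 25.1% and 28.6% of all genes. After 6 h of Torin1 in HepG2, 12 of 25 rose and 4 fell, against 26.1% and 33.8% of all genes, with a median of 0.08 against -0.03 over all genes.

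Among targets and regulators in HCT116, MSX2, a homeobox gene switched on by BMPs, held 18.88, 18.37 and 19.03 FPKM in NC, 9.306, 9.578 and 8.872 after 3 h of TNF-α (-0.95) and 29.31, 28.04 and 28.1 after 6 h of Torin1 (0.58). It was also lower after 3 h of IL-6 (-0.48) and IL-10 (-0.60). TOB1, a repressor of SMAD-driven transcription, fell at 3 h with every agent (-0.40 to -0.76), and at 6 h the differences were -0.03 to 0.04 and did not pass. The receptor ACVR2B rose with Torin1, from 1.792 to 3.592 and 4.321 (0.72 and 0.93). SMURF2, a ubiquitin ligase that removes SMADs and receptors, rose after TNF-α (0.33 and 0.80), from 26.03 to 46.17 ± 3.3 at 6 h. SKIL, a SMAD corepressor, rose with Torin1 (0.43 and 0.51). MSX1, a homeobox relative of MSX2, fell after TNF-α (-0.30 at 3 h and -0.24 at 6 h), after IL-6 (-0.28 and -0.37) and after 3 h of IL-10 (-0.24). Its IL-6 libraries at both hours and its TNF-α libraries at 6 h overlapped those of IL-10 of the same hour. Those of TNF-α at 3 h lay below IL-10. TCF12, an E protein bound by ID proteins, fell after 6 h of TNF-α (-0.37) and of Torin1 (-0.33). TCF12 and TCF3 together fell in 13 of 16 comparisons with NC in HCT116 and rose in 0, and fell in 6 of 16 in HepG2. Over all genes, 36.7% of the tests against NC in HCT116 and 31% in HepG2 were called in either direction. The share called lower alone and the counts against IL-10 are not given here. These comparisons share the NC libraries. In HCT116, TCF3 stood at 13.8 FPKM in NC and at 10.95 to 13.09 in the treated means. TCF12 stood at 9.262 in NC and 9.37 after 3 h of IL-10. These falls cannot be told apart from the time in culture. SMURF1, which has a copy row in the table and is uncertain for that reason, stood at 0.41 after 6 h of TNF-α.

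In HepG2, HAMP, hepcidin, held 31.53, 31.1 and 26.39 FPKM in NC, 64.78, 61.84 and 55.42 after 3 h and 75.69, 76.92 and 75.43 after 6 h of IL-6. TNF-α left 12.21, 17.74 and 16.09 at 3 h and 12.05, 14.18 and 13.69 at 6 h. The IL-6 libraries lay above and the TNF-α libraries below all NC libraries, with differences of 1.01 and 1.33 for IL-6 and -0.92 and -1.10 for TNF-α (adjusted p 9.25e-07, 4.18e-08, 3.05e-06 and 4.32e-07). HEY1, a transcriptional repressor reached by both BMP and Notch signals, went from 3.028, 2.672 and 2.849 in NC to 9.698, 8.22 and 8.465 after 3 h and 14.82, 13.55 and 14.68 after 6 h of Torin1. The rises were 1.35 and 2.00 with no overlap, and HEY1 fell after TNF-α (-0.65 at 3 h and -0.15 at 6 h) and after IL-6 (-0.40 and -0.44). IL-10 libraries held 2.343 to 2.79 FPKM at 3 h and 2.455 to 2.606 at 6 h. At 6 h those of TNF-α overlapped them (2.37 to 2.552), whereas TNF-α at 3 h and IL-6 at both hours lay below. ACVR2B rose with Torin1 (0.73 and 1.00), as did the coreceptor RGMB (0.60 and 0.97), TOB1 (0.80 and 0.74) and the corepressor SKI (0.15 and 0.65). The E protein TCF3 fell with Torin1 (-0.22 and -0.41), and SMURF1, with its copy row, stood at 0.46 and 0.49 after TNF-α. After 3 h of Torin1, TOB1 stood lower than NC in HCT116 (-0.40) and higher in HepG2 (0.80), whereas against IL-10 of the same hour it was higher in both (0.15 and 0.66, both called). The difference between the lines was not tested for TOB1.

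**Figure D5:**
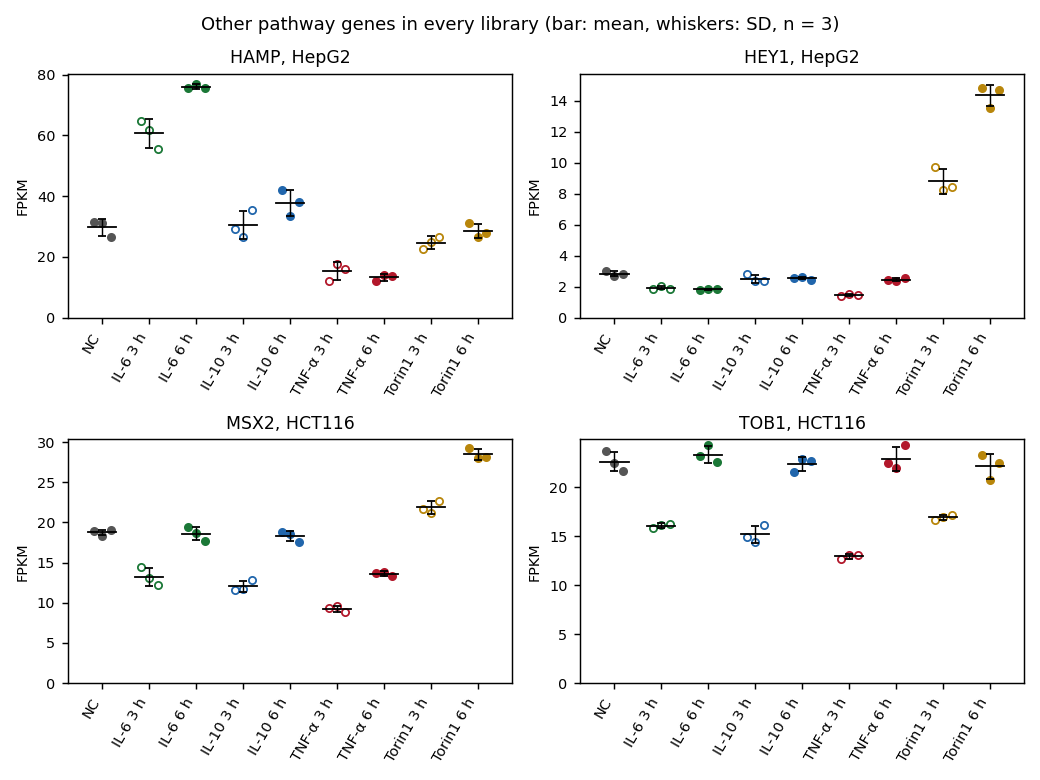
HAMP and HEY1 in HepG2 (top) and MSX2 and TOB1 in HCT116 (bottom), FPKM per library from 0 with the mean and SD of 3, for the 9 groups. HAMP lies highest after IL-6 and lowest after TNF-α, HEY1 reaches 14.82 after 6 h of Torin1, and TOB1 is lower at 3 h of every agent than in NC.

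Genes with the pattern most like ID1, ID2 and SMAD7 were ranked by Pearson's r over the 9 group means of a line, among genes with a range of at least 0.5 on the log2 scale. In HCT116 DEPDC1 (0.949) and MRFAP1L2 (0.947) were among the nearest 3 to ID1, and the nearest were L3MBTL3 (0.965), RHOBTB3 (0.96) and NR2F2-AS1 (0.944) to ID2, and MIR3934 (0.956), ZBTB20 (0.955) and GOLGB1 (0.954) to SMAD7. In HepG2 AGT (0.937), B3GNT3 (0.937) and THPO (0.925) were nearest to ID1, FOXQ1 (0.915), SNORD68 (0.911) and HES1 (0.889) to ID2, and ANKRD1 (0.95), B3GNT8 (0.934) and NAB2 (0.927) to SMAD7. None of the genes named here was named for both lines. The values are descriptions over 9 means that share 1 NC group and their libraries, chosen from 2763 and 2682 candidates.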

How the data were processed

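The authors deposited 1 table of FPKM values per gene and library, and per the submitters' processing notes the reads went through FastQC, HISAT2, StringTie and DESeq2 on GRCh38. The sources used here state no versions, no counting tool and no strand setting. The 48 columns of the authors' own comparisons were not used. FPKM steps gave whole reads for 100% of 36451 genes above 0 (tolerance 0.01 read), which set the depth.

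The authors' FPKM were taken as log2(FPKM + 1), and genes with at least 1 FPKM in 3 libraries of a line were kept. limma 3.58.1 (trend, R 4.3.3) was fitted per line without covariates, and over both lines for differences between them. Benjamini-Hochberg adjustment ran over all genes tested, with a threshold of 0.05, and two-sided tests. The method was tested on simulated data, for IL-6 at 3 h against NC. Changes of 1.25-fold were recovered in 46% of cases in HCT116 and 32% in HepG2, and of 1.5-fold in 96% and 82%. Of unchanged genes, 2.3% and 3.1% were called. Small changes that did not pass may therefore have been missed.

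The 10 members and the gene lists were chosen with earlier results of these data known. Every member is named, with library values where a call against NC reached 0.5 on the log2 scale or NC held at least 5 FPKM. Of the pathway list the 8 genes per line with the largest called difference from NC are named, and for likeness the 3 with the highest r over group means, among genes with a range of at least 0.5 and no copy row. Alternatives were a pseudocount of 0.1, no filter, median-of-ratios factors, a replicate block, a fit of the compared groups, limma-voom on recovered reads and leaving out each library. Voom without a filter was chosen after seeing the data. The group labelled as Torin1 recovery in the series text was not analysed here. One gene that the rule for similar patterns names is not reported here.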

Additional observations from a re-analysis of the deposited data

Results flagged for a closer look

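Each value here is a difference between the lines in the same contrast, the effect against NC in HCT116 minus that in HepG2 on the log2(FPKM + 1) scale, which passed the test of the difference itself in limma.

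For TNF-α at 3 h the difference was -1.17 for ID1, -1.35 for ID2, -0.73 for BAMBI and -0.47 for BMP4. At 6 h of TNF-α it was -0.47 for ID1, -1.52 for ID2 and 0.32 for SMAD7. ID2 rose in HepG2 and fell in HCT116 at 3 h, and fell in both lines at 6 h.

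For Torin1 at 3 h the difference was 0.75 for ID1, -0.85 for BAMBI and -0.20 for BMP4. At 6 h of Torin1 it was 0.72 for ID1, -0.22 for ID2, -0.61 for BAMBI and -0.33 for BMP4. Against NC, BMP4 rose in both lines, and ID1 rose in HCT116 and fell in HepG2. Against IL-10 of the same hour, ID1 in HepG2 was lower at 3 h of Torin1 (-0.47) and not detectably different at 6 h (0.01).

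For IL-6 at 3 h the difference was -0.72 for ID1, -0.19 for ID2, -0.47 for SMAD7 and -0.40 for BAMBI. At 6 h of IL-6 it was -0.47 for ID1 and 0.32 for BMP4. For IL-10 it was 0.26 for ID2, -0.32 for SMAD7 and -0.45 for BAMBI at 3 h, and 0.29 for ID1 at 6 h. BAMBI in HCT116 fell alike after 3 h of every agent. Its differences for IL-6 and IL-10 can therefore not be told apart from the time in culture. The differences of SMAD7 for TNF-α at 6 h, of BMP4 for Torin1 at 3 h and of SMAD7 for IL-10 at 3 h were lost in 8, 5 and 3 of 18 alternatives.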

How the results depend on the processing

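No called value reversed under any alternative run. Of 165 member calls, 2 were lost with a pseudocount of 0.1, 7 without a filter, 1 with median-of-ratios factors, 14 in a fit of only the compared groups and 2 with limma-voom, and 1, 1, 4, 5 and 10 of 117 other tests were gained. Leaving out each library lost 50 of 1134 and gained 16 of 798. Members called for IL-6 at 6 h against NC in HCT116 went from 1 to 0 without a filter and 0 in a fit of only the compared groups, and ranged from 0 to 1 when libraries were left out in turn. Members called for IL-10 at 6 h against NC in HepG2 went from 1 to 0 with median-of-ratios factors, to 0 without a filter, and ranged from 0 to 1 when libraries were left out. The cause was not tested. Calls against NC over all groups totalled 24 of 48 tests in HCT116 and 36 of 56 in HepG2. Over the alternatives they ran from 22 to 29 and from 34 to 40. Over all genes, 36.7% and 31% of such tests were called. The totals hold BMP2 in HCT116 and SMAD9 in HepG2, which passed the filter only through TNF-α or Torin1 libraries. Deviations of libraries with the same replicate number correlated at -0.11 to 0.12 in HCT116 (3 of 108 pairs over 0.1) and -0.14 to 0.12 in HepG2 (4 of 108), so the numbers were not taken to pair the samples. On average 15 of 27 HCT116 and 24 of 27 HepG2 libraries correlated more with their own number than with others, for HepG2 a hint from the data and not from the design. With the replicate block these totals were 24 and 37, with 1 call lost and 2 gained. For the members near or under the filter, voom without it, chosen after seeing the data, left 56 results unchanged and called 8 more. Members under the filter had no limma test, and they count as unchanged wherever voom did not call them. The rows of ID4 and BMP2 in both lines, and of SMAD6 and SMAD9 in HCT116, held few reads, which limits what can be read from them.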
